A study of Mus musculus with 8 samples.

Results

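The extracellular nucleotide receptors and the enzymes that degrade their ligands were followed as a set of 10 mouse genes: the P2Y receptor genes P2ry14, P2ry6, P2ry12 and P2ry13, the ATP-gated channel genes P2rx4 and P2rx7, the ectonucleotidase genes Entpd1 and Nt5e, and the adenosine receptor genes Adora2a and Adora2b. They were chosen by symbol, with earlier results of the same libraries known, and all 10 were found among the 55450 genes of the first of 2 expression tables and among the 24848 genes of the second. Since the treatment contrast of these libraries was known when the genes were chosen, their differences between treatments are given as descriptions, and where members past a threshold are counted, the share of all genes stands beside the count and nothing is read from it.

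Cells release ATP, ADP, UTP and UDP-sugars when they are stressed, activated or dying. P2X channels open on ATP, and P2Y receptors signal through G proteins on nucleotides or UDP-sugars. On the cell surface CD39, the product of Entpd1, converts ATP and ADP to AMP, and CD73, the product of Nt5e, converts AMP to adenosine. Adenosine then acts on the receptors encoded by Adora2a and Adora2b, which raise cyclic AMP and generally restrain myeloid inflammation.

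Treated cultures received recombinant S100A8/A9, a heterodimer that myeloid cells release in inflammation, and the others received PBS, called vehicle here. The marrow of both groups came from an SS dry eye model in mice (SS commonly stands for Sjögren's syndrome), so vehicle cultures carry the model too. The labels name the cells bone marrow-derived dendritic cells, while the titles read BMDMs, which usually means macrophages. Each group had 4 libraries of poly(A) RNA. Strain, age, dose and time are not given in the sources used here, and nothing says that libraries of a group came from separate animals or cultures, so any spread between them may be technical. Values were taken as FPKM, fragments scaled to gene length and library depth, a unit read from the numbers themselves. Replicates 1 to 3 shared a table, and the replicate 4 libraries stood in another table with its own gene list. Levels are therefore compared within a table only. In replicate 4 nearly all low values were whole multiples of 1 read (98.77% with S100A8/A9 and 98.55% with vehicle, within 0.01 reads), and these implied 33400000 and 31900000 reads. In replicates 1 to 3 at most 6.14% were, and the depth there is a rough estimate of 22800000 to 25700000 reads.

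Markers of several myeloid lineages were present. All 10 macrophage markers were at 1 FPKM or more in every library, as were all 6 monocyte markers. Of 7 dendritic cell markers, 5 reached that level in each library of replicates 1 to 3 (Itgax, Zbtb46, H2-Ab1, Cd74 and Ciita). Flt3, a growth factor receptor of conventional dendritic cells, stayed between 0.309 and 0.818 FPKM with S100A8/A9 and between 0.486 and 0.921 FPKM with vehicle. Dpp4 also stayed below 1 FPKM in these libraries. In replicate 4, 6 of the 7 reached 1 FPKM in either group, and Flt3 had 1.00 FPKM with S100A8/A9 and 0.833 FPKM with vehicle. Of 12 neutrophil markers, 4 or 5 reached 1 FPKM, with S100a8, S100a9, Mmp8 and Csf3r above it in every library. The granule genes Mpo and Elane stayed below that level in every library. Mmp8, also a granule gene, had 60.5 to 98.3 FPKM with S100A8/A9 and 59.8 to 98.5 FPKM with vehicle in replicates 1 to 3. Bulk RNA does not tell fewer cells of a type from less RNA per cell.

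The 3 P2Y genes P2ry14, P2ry13 and P2ry12 lie on the reverse strand of chromosome 3 within the span of Med12l, which runs on the forward strand from 59005825 to 59318682 (mm10, GENCODE annotation). P2ry14 (ENSMUSG00000036381) spans 59113855 to 59153618, P2ry13 (ENSMUSG00000036362) spans 59207892 to 59210882 and P2ry12 (ENSMUSG00000036353) spans 59216272 to 59262871. P2rx7 (ENSMUSG00000029468, 122643911 to 122691432) and P2rx4 (ENSMUSG00000029470, 122707544 to 122729738) are neighbours on the forward strand of chromosome 5. The other genes are scattered, with P2ry6 (ENSMUSG00000048779) on chromosome 7, Nt5e (ENSMUSG00000032420) on chromosome 9, Adora2a (ENSMUSG00000020178) on chromosome 10, Adora2b (ENSMUSG00000018500) on chromosome 11 and Entpd1 (ENSMUSG00000048120) on chromosome 19. All 10 are protein-coding. Exons of P2ry12 share 9 bases with those of Med12l on the other strand, and P2rx7 exons overlap the microRNA gene Mir8115. No strand marking is stated for these libraries, so reads from such overlaps cannot be told apart.

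Promoter windows are shown for the 3 clustered P2Y genes and for Nt5e, since the results below turn on P2ry14, its cluster and the replicate-dependent level of Nt5e. Each is the 250 bases before a RefSeq transcript start (GRCm38.p6), 5′ to 3′ on the gene's strand, from chr3:59153493-59153742 for P2ry14 (the farthest upstream of its 4 listed starts), chr3:59210883-59211132 for P2ry13, chr3:59262986-59263235 for P2ry12 and chr9:88327359-88327608 for Nt5e. Capitals mark matches to the motifs named after the sequences.
P2ry14: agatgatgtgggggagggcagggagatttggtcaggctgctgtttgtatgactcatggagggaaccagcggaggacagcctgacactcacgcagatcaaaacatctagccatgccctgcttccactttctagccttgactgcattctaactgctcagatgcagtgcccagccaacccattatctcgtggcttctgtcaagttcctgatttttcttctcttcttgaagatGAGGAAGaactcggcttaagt
P2ry13: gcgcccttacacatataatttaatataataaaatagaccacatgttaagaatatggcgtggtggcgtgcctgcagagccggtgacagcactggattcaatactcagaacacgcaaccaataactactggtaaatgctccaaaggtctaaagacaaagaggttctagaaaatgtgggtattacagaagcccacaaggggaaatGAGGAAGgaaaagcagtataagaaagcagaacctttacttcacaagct
P2ry12: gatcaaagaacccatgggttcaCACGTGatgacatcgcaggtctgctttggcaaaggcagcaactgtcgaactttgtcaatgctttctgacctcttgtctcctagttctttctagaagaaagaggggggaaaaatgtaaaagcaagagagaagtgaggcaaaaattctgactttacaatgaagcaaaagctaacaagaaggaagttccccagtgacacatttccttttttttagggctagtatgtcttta
Nt5e: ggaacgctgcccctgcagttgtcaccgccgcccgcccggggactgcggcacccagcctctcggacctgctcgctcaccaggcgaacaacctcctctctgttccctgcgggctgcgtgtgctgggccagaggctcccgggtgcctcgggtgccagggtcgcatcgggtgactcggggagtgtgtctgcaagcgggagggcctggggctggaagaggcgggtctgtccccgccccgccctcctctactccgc

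Windows were listed for 8 of the 10 genes, 13 windows in all, and none for P2ry6 or Adora2a. In both orientations 6 short motifs were searched. The interferon-stimulated response element core, the ETS-IRF composite element and the interferon-gamma activated site (TTCNNNGAA) matched 0 of the 13 windows. Among all 32851 listed windows of the same length these motifs matched 2.98%, 2.3% and 7.02%. The letters GAGGAAG, bound by ETS factors such as the myeloid factor Spi1, matched 3 of the 13 windows and 10.6% of all windows. They lie at position -21 in the P2ry14 window, -48 in the P2ry13 window and -227 in the downstream Entpd1 window, counted from the transcript start. The hypoxia response core (ACGTG) matched 1 member window, that of P2ry12, and 16.6% of all windows, with overlapping matches on both strands in the capitals shown. The cyclic AMP response half-site (TGACG) matched 3 member windows, 1 of P2rx4 and 2 of Entpd1, and 17.8% of all windows. A match is a string of letters, not a measured binding site.

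The receptors for UDP and for ATP led the set. P2ry6, a Gq-coupled receptor for UDP, had 37.5, 34.1 and 34.5 FPKM with S100A8/A9 in replicates 1 to 3 and 38.2, 36.0 and 30.7 FPKM with vehicle. P2rx4, an ATP-gated channel found largely in endosomes and lysosomes of phagocytes, had 43.4, 29.8 and 31.2 FPKM with S100A8/A9 and 42.4, 33.7 and 28.3 FPKM with vehicle. Both genes stood above about 90 in 100 of the 11387 genes tested by mean level (percentiles 90.8 and 90.6), and their ranges overlapped in either group. P2ry14 followed with a mean of 15.8 FPKM over the 6 libraries, then Entpd1 with 11.2, Nt5e with 6.44, P2rx7 with 5.38, Adora2a with 5.13, Adora2b with 3.03, P2ry13 with 1.90 and P2ry12 with 0.284 FPKM. In vehicle cultures the ranges of P2ry14 and Entpd1 overlapped, as did those of Nt5e, P2rx7 and Adora2a in turn, and those of Adora2b and P2ry13. P2rx4 and P2ry14, Entpd1 and Nt5e, Adora2a and Adora2b, and P2ry13 and P2ry12 had ranges apart from each other there.

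**Figure D1:**
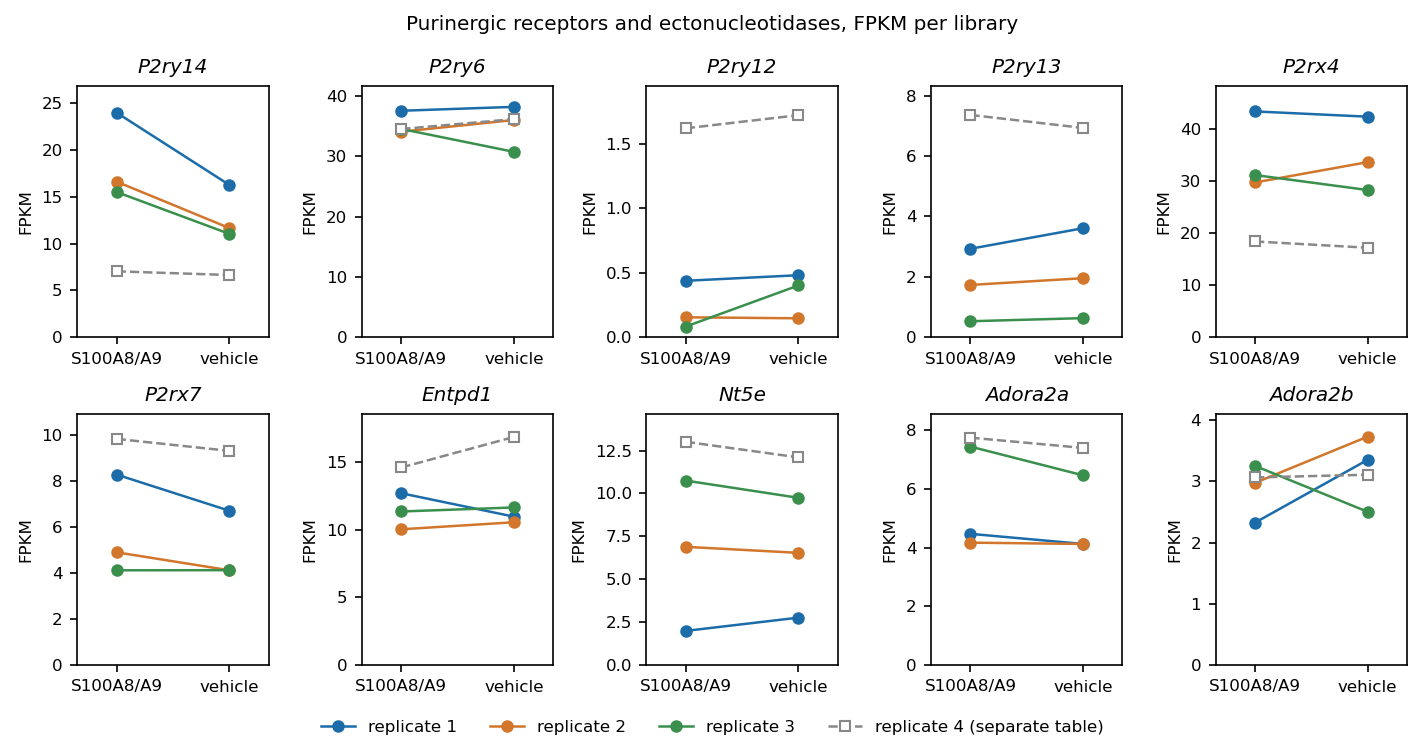
FPKM of the 10 genes in each library, S100A8/A9 left and vehicle right, with a line joining the libraries of a replicate number; filled circles are replicates 1 to 3 and open squares replicate 4, from a separate table whose levels are not comparable with the others. P2ry14 slopes down towards vehicle in replicates 1 to 3. On the log2 scale all 9 genes tested differ more between replicate numbers than between treatments, P2ry13 and Nt5e with the widest ranges.

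P2ry14 encodes a Gi-coupled receptor for UDP-glucose and related UDP-sugars. It had 23.98, 16.6 and 15.5 FPKM with S100A8/A9 in replicates 1 to 3, against 16.3, 11.7 and 11.0 FPKM with vehicle. Each treated library was above the vehicle library of its own number, yet the groups overlapped, because vehicle replicate 1 exceeded treated replicate 3. The within-pair ratios were 1.47, 1.42 and 1.40, with a geometric mean of 1.43, and the means were 18.7 ± 4.61 FPKM with S100A8/A9 and 12.99 ± 2.86 FPKM with vehicle (SD, n = 3 each). The difference on the log2(FPKM + 1) scale was 0.49, and it varied by no more than 0.08 between the 3 pairs. In replicate 4 P2ry14 had 7.03 FPKM with S100A8/A9 and 6.64 FPKM with vehicle, from 2598 and 2342 reads, a ratio of 1.06. The replicate 4 difference was thus in the same direction but far smaller, and of the 9 tested members 6 were higher and 3 lower in that pair. The share of all genes higher in 4 of 4 pairs was not computed, so nothing is read from the shared direction.

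When limma was given replicate numbers as blocks, 1 of the 9 members tested (P2ry14) passed a Benjamini-Hochberg adjusted p of 0.05, where 0.518% of all 11387 genes did (0.501% higher and 0.0176% lower). Without the block 0 of 9 passed, and 0.0% of all genes (344 genes, or 3.02%, had an unadjusted p under 0.05). These counts are no test of the members, since the contrast was known when the genes were chosen.

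Genes with a profile over the 6 libraries most like that of P2ry14 were looked up by the root-mean-square difference of centred log2(FPKM + 1), among the 6726 genes that averaged 5 FPKM or more. P2ry14 was added to this search after its values were seen. The nearest were Rasa4 (0.09), Trim14 (0.10), Uba7 (0.11), 1600014C10Rik (0.11) and Milr1 (0.14). Uba7 encodes the enzyme that activates the interferon-induced modifier ISG15. Uba7 had 20.03, 15.7 and 14.5 FPKM with S100A8/A9 and 12.2, 10.5 and 9.58 FPKM with vehicle. In replicate 4 the ratios of these 5 genes were 1.06, 1.00, 1.12, 1.06 and 0.92, spanning that of P2ry14 itself.

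The ADP receptor genes of the same cluster were low in these cultures. P2ry13, which encodes a Gi-coupled ADP receptor, had 2.93, 1.73 and 0.528 FPKM with S100A8/A9 in replicates 1 to 3, against 3.61, 1.95 and 0.631 FPKM with vehicle. It was lower with S100A8/A9 in each of these pairs, with ratios of 0.811, 0.885 and 0.836, and higher in replicate 4, where it had 7.37 FPKM with S100A8/A9 and 6.93 FPKM with vehicle (622 and 559 reads, ratio 1.06). P2ry12, known as the ADP receptor of platelets and microglia, stayed below the filter with 0.438, 0.154 and 0.0828 FPKM with S100A8/A9 and 0.481, 0.147 and 0.402 FPKM with vehicle. At the estimated depth these stand for roughly 29, 10 and 5 reads with S100A8/A9 and 30, 9 and 23 reads with vehicle, so its ratio of 0.206 in pair 3 rests on few reads. In replicate 4 P2ry12 had 1.62 FPKM with S100A8/A9 and 1.72 FPKM with vehicle, from 138 and 140 reads. Platelets are a known site of P2ry12, and the platelet and megakaryocyte marker list had a summed level of 41.0 to 85.0 FPKM with S100A8/A9 and 32.2 to 81.0 FPKM with vehicle in replicates 1 to 3, with its highest sum in replicate 1 of either group; its part in the P2ry12 level was not tested.

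Other genes of the cluster were low or did not pass. Gpr171, a G protein-coupled receptor gene of the cluster, had 2.23, 1.11 and 1.12 FPKM with S100A8/A9 and 2.03, 1.11 and 1.51 FPKM with vehicle. Med12l, the host of the cluster, was at 0.0926 to 0.245 FPKM with S100A8/A9 and 0.169 to 0.199 FPKM with vehicle. Siah2 and Mbnl1 nearby had log2 differences of 0.05 and 0.22, and neither passed (adjusted p of 1.00 each in limma, 0.961 and 0.509 with the block).

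The ATP-gated channels were close to vehicle. P2rx4, given above, had within-pair ratios of 1.02, 0.884 and 1.10, with a geometric mean of 0.999, and 1.07 in replicate 4. P2rx7 encodes the channel that opens at high ATP and feeds NLRP3 inflammasome activation. It had 8.29, 4.90 and 4.12 FPKM with S100A8/A9 and 6.72, 4.12 and 4.13 FPKM with vehicle. Its ratios were 1.23, 1.19 and 0.999, and 1.06 in replicate 4, where it had 9.84 FPKM with S100A8/A9 and 9.32 FPKM with vehicle. In every library of replicates 1 to 3 the P2rx4 level was more than 5 times that of P2rx7 (5.24, 6.07 and 7.57 times with S100A8/A9, and 6.31, 8.16 and 6.86 times with vehicle). The second table gave 1.87 times with S100A8/A9 and 1.85 times with vehicle, and whether the cultures or the making of the table set this gap cannot be told apart. P2ry6 had ratios of 0.983, 0.946 and 1.12, and 0.955 in replicate 4 (34.5 FPKM with S100A8/A9 and 36.2 FPKM with vehicle).

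**Figure D2:**
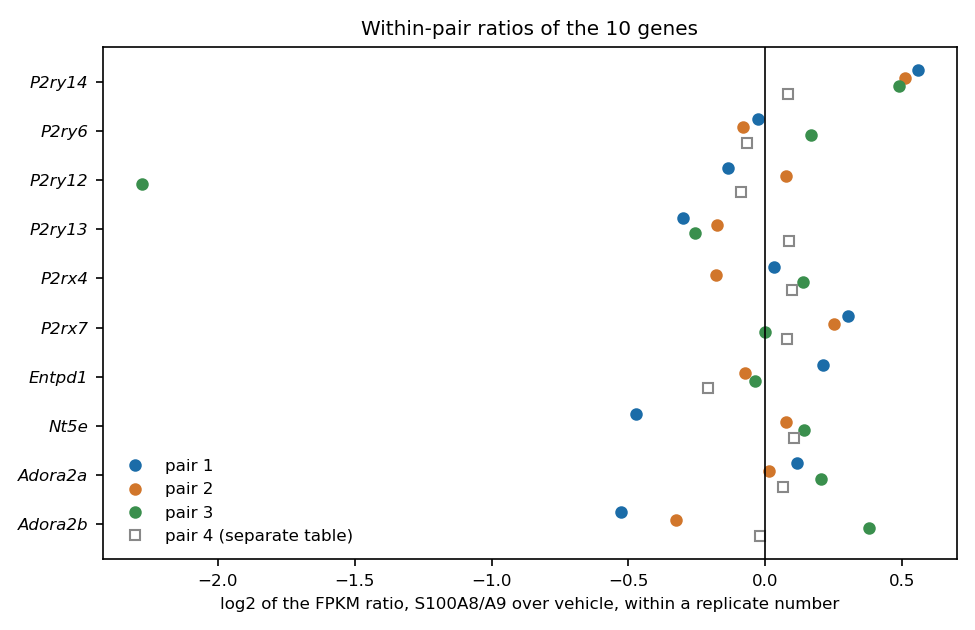
The log2 ratio of FPKM, S100A8/A9 over vehicle, within each replicate number for the 10 genes; filled circles are pairs 1 to 3 and open squares pair 4 from the separate table. P2ry14 lies at 0.56, 0.51 and 0.49 in pairs 1 to 3 and at 0.08 in pair 4, and the low P2ry12 value of -2.28 comes from a gene with few reads.

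Of the enzymes, Entpd1 had 12.7, 10.03 and 11.3 FPKM with S100A8/A9 and 11.0, 10.5 and 11.6 FPKM with vehicle. Its ratios were 1.16, 0.951 and 0.974, and 0.866 in replicate 4, with 14.6 FPKM with S100A8/A9 and 16.9 FPKM with vehicle (2721 and 2999 reads). Nt5e had 1.99, 6.89 and 10.7 FPKM with S100A8/A9 and 2.76, 6.54 and 9.75 FPKM with vehicle. Its ratios were 0.72, 1.05 and 1.10, and 1.08 in replicate 4, where it had 13.01 FPKM with S100A8/A9 and 12.1 FPKM with vehicle. For both enzymes the vehicle range lay within the S100A8/A9 range.

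The adenosine receptor genes differed little between treatments. Adora2a had 4.47, 4.17 and 7.44 FPKM with S100A8/A9 and 4.12, 4.12 and 6.46 FPKM with vehicle, with ratios of 1.08, 1.01 and 1.15. It was above vehicle in each of these pairs and in replicate 4 (7.74 FPKM with S100A8/A9, 7.39 FPKM with vehicle), by at most 1.15-fold. Nothing is read from this shared direction, as for P2ry14. Adora2b had 2.33, 2.98 and 3.26 FPKM with S100A8/A9 and 3.35, 3.73 and 2.50 FPKM with vehicle. Its ratios of 0.694, 0.798 and 1.30 differed in direction, and replicate 4 gave 0.986. Of the 9 members tested, 2 were higher with S100A8/A9 in each of the 3 pairs (P2ry14 and Adora2a), where 19.4% of all genes were, and 1 was lower in each (P2ry13), where 9.62% were. The groups did not overlap for 0 of the 9, against 6.65% of all genes.

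The level by replicate number varied widely between members. For 9 of 9 tested members the range of the pair means over replicates 1 to 3 exceeded the size of the treatment difference, as it did for 87.2% of all genes, so this is not particular to them. Nt5e and P2ry13 had ranges of 1.75 and 1.43 log2 units, above 99.6% and 99.2% of the 11387 genes, and were the 2 members past 1 log2 unit, as were 2.73% of all genes. Ranges of P2rx7 (0.72), Adora2a (0.63), P2ry14 (0.56) and P2rx4 (0.52) were also above the median of 0.26 over all genes, while those of P2ry6 (0.21), Adora2b (0.19) and Entpd1 (0.18) were below it. Replicate 1 held the highest pair mean for 6 members (P2ry14, P2ry6, P2ry13, P2rx4, P2rx7 and Entpd1), replicate 3 for Nt5e and Adora2a, and replicate 2 for Adora2b.

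Beside these levels, the mean log2(FPKM + 1) of macrophage markers was 6.17, 5.17 and 4.45 with S100A8/A9 and 6.07, 5.10 and 4.35 with vehicle in replicates 1 to 3. Neutrophil markers were at 1.46, 1.78 and 2.03 with S100A8/A9 and 1.46, 1.78 and 2.06 with vehicle, and dendritic cell markers at 4.99, 4.48 and 4.56 with S100A8/A9 and 4.97, 4.51 and 4.53 with vehicle. The macrophage summed level ran from 562 to 1226 FPKM with S100A8/A9 and from 517 to 1199 FPKM with vehicle, with none of its 10 genes at 0. P2ry13 and the macrophage list were highest in replicate 1 and lowest in replicate 3, and Nt5e and the neutrophil list the reverse. In the neutrophil list S100a8 and S100a9 carried that order, S100a8 with 11.4, 52.5 and 113 FPKM with S100A8/A9 and 9.72, 44.1 and 125 FPKM with vehicle. The other clearly detected markers of that list, Mmp8 and Csf3r, were highest in replicate 1, Mmp8 with 98.3, 60.5 and 72.0 FPKM with S100A8/A9 and 98.5, 59.8 and 68.5 FPKM with vehicle. The part of cell makeup in these levels was not tested.

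**Figure D3:**
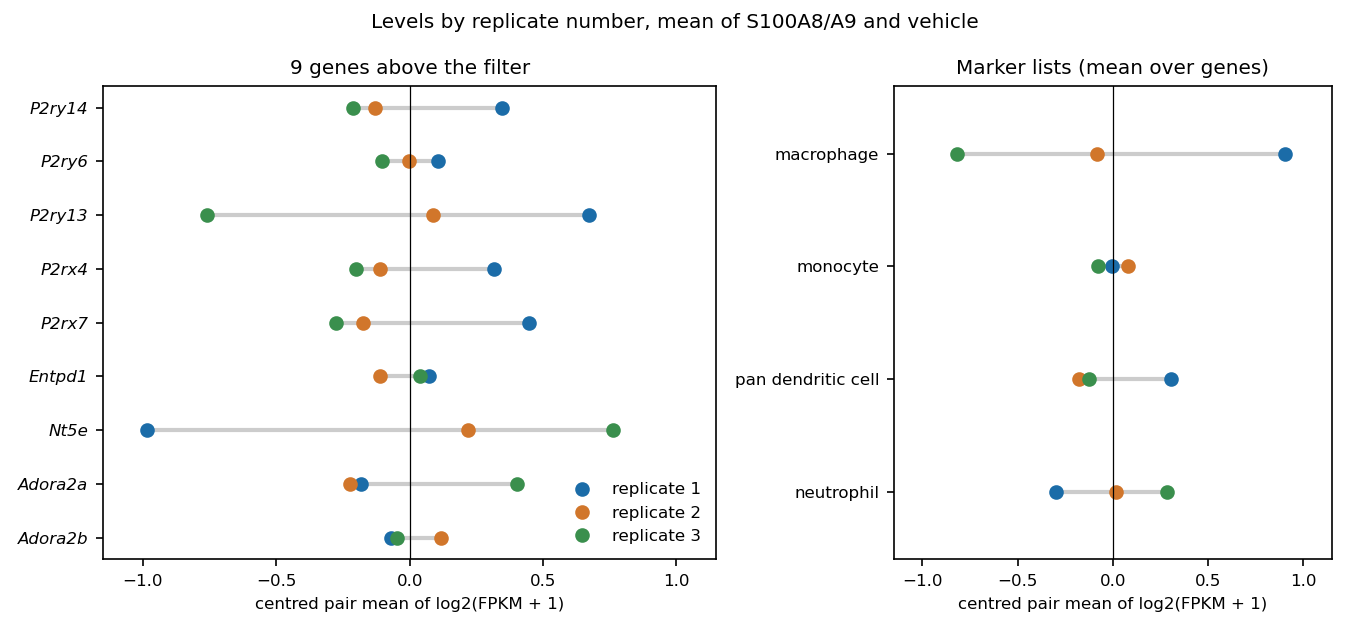
Pair means of log2(FPKM + 1), averaged over S100A8/A9 and vehicle and centred on replicates 1 to 3, for the 9 genes above the filter (left) and 4 marker lists (right); each point is a replicate number and grey bars span them. Nt5e and P2ry13 spread over 1.75 and 1.43 log2 units in opposite directions.

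The balance of the enzymes differed with replicate number too. Per length, Entpd1 was 6.39, 1.46 and 1.06 times Nt5e with S100A8/A9 and 3.98, 1.61 and 1.19 times with vehicle in replicates 1 to 3. In replicate 4 it was 1.12 times with S100A8/A9 and 1.39 times with vehicle. Entpd1 thus exceeded Nt5e in all 8 libraries, by far the most in replicate 1 of either group.

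Profiles nearest to those of the most variable members were taken by the same measure. For Nt5e they were Gm15056 (0.14), Jag1 (0.18), Cd14 (0.19), C1s1 (0.19) and Cd24a (0.21). Cd14, the lipopolysaccharide co-receptor gene, had 109, 211 and 347 FPKM with S100A8/A9 and 94.1, 194 and 278 FPKM with vehicle. For P2ry13 they were Ctsl (0.11), C3ar1 (0.12), Klk1b11 (0.13), Gm6522 (0.13) and Itgb5 (0.14). C3ar1, the receptor gene for complement C3a, had 75.9, 50.8 and 23.7 FPKM with S100A8/A9 and 73.2, 54.9 and 26.0 FPKM with vehicle.

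By level, the second table ordered the members differently. P2ry6 and P2rx4 were first and second in both tables and P2ry12 last, but P2ry14 was number 3 in replicates 1 to 3 and number 8 in replicate 4, and P2ry13 was number 9 and then number 7. Replicate 4 had P2ry14 at 0.955 times P2ry13 with S100A8/A9 and 0.958 times with vehicle. In replicates 1 to 3 P2ry14 was 8.18, 9.60 and 29.4 times P2ry13 with S100A8/A9 and 4.51, 5.96 and 17.5 times with vehicle.

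Further genes of the pathway numbered 79, chromosomal neighbours not included, and 56 of them were above the filter. In limma without the block 0 of the 56 passed the threshold, where 0.0% of all 11387 genes did. With the block 0 of the 56 passed, where 0.518% of all genes did, so nothing is read from these counts. At an unadjusted p under 0.05 there was 1 without the block and 9 with it, where 3.02% and 7.97% of all 11387 genes were. Their median log2 difference was 0.05, beside 0.02 over all genes. Of the remaining P2X genes 1 of 5 was above the filter (P2rx5), of the P2Y genes 4 of 6 (P2ry1, P2ry2, P2ry10 and P2ry10b), and of the adenosine receptors 0 of 2. P2ry2, the UTP and ATP receptor gene beside P2ry6, had 6.15, 7.86 and 9.95 FPKM with S100A8/A9 and 6.71, 7.68 and 7.89 FPKM with vehicle. P2ry1, another ADP receptor gene, had 4.48, 5.34 and 7.10 FPKM with S100A8/A9 and 4.65, 5.24 and 5.76 FPKM with vehicle. It thus exceeded P2ry13 and P2ry12 in each library of replicates 1 to 3. In replicate 4 P2ry1 had 4.05 FPKM with S100A8/A9 and 4.24 FPKM with vehicle, below P2ry13 (7.37 and 6.93 FPKM) and above P2ry12. Adora3 had 0.916, 0.663 and 0.516 FPKM with S100A8/A9 and 1.05, 0.837 and 1.07 FPKM with vehicle, and Adora1 stayed at or below 0.0479 FPKM.

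In the list of adenosine uptake and breakdown, Pnp, which encodes purine nucleoside phosphorylase, had 31.3, 24.9 and 16.2 FPKM with S100A8/A9 and 16.6, 16.4 and 15.2 FPKM with vehicle. Its log2 difference of 0.51 ± 0.22 (SE) had an adjusted p of 1.00 in limma and 0.349 with the block, and in replicate 4 Pnp had 7.45 FPKM with S100A8/A9 and 7.08 FPKM with vehicle. The other 5 tested genes of that list had no call, among them Ada, the adenosine deaminase gene, at 4.84, 5.26 and 2.37 FPKM with S100A8/A9 and 4.17, 4.89 and 3.51 FPKM with vehicle. Panx1 encodes a channel that releases ATP. Panx1 had 3.90, 4.54 and 6.15 FPKM with S100A8/A9 and 2.82, 3.58 and 4.39 FPKM with vehicle, a log2 difference of 0.35 ± 0.18 (SE) with adjusted p of 1.00 in limma and 0.292 with the block. In replicate 4 it was 4.19 FPKM with S100A8/A9 and 4.45 FPKM with vehicle.

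Among the 9 tested genes listed as other ectonucleotidases and related enzymes, Enpp4 and Bst1 had log2 differences of 0.38 and 0.27, and Entpd4 had -0.34 (adjusted p of 1.00 each in limma, and 0.514, 0.482 and 0.603 with the block). Not all of these enzymes act on the cell surface. Reads of Entpd4 may be split with near-identical copies. Entpd4 was listed at 0 with S100A8/A9 and at 0.0117 FPKM with vehicle in the second table, beside 1.43 to 2.46 FPKM with S100A8/A9 and 2.33 to 3.12 FPKM with vehicle in the first. The list of genes around UDP-glucose, a ligand of the P2ry14 product, had a median log2 difference of -0.04 over 5 genes. Not all of these make UDP-glucose, so the median does not measure its supply. Ugp2, which encodes the enzyme that makes UDP-glucose, had 25.3, 22.3 and 22.8 FPKM with S100A8/A9 and 21.3, 21.2 and 21.7 FPKM with vehicle (limma adjusted p of 1.00 without and 0.747 with the block). It was higher with S100A8/A9 in each of the 3 pairs, as were 19.4% of all genes. Its groups did not overlap, as was so for 6.65% of all genes.

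Genes acting downstream of the P2rx7 channel had the largest median of the lists, 0.16 over 8 genes, and 7 of the 8 were higher with S100A8/A9 in each of the 3 pairs, as were 19.4% of all genes. In limma 0 of the 8 passed with or without the block, and 4 had an unadjusted p under 0.05 with it, as had 7.97% of all genes. In replicate 4, 3 of the 8 were higher and 5 were lower with S100A8/A9, Casp1 and Gsdmd among the lower (ratios 0.931 and 0.979). Ninj1, needed for membrane rupture in lytic death, had 80.6, 75.5 and 102 FPKM with S100A8/A9 and 67.0, 63.0 and 78.9 FPKM with vehicle, with adjusted p of 1.00 in limma and 0.123 with the block. Casp1 and Gsdmd, the inflammatory caspase and its pore-forming substrate, had log2 differences of 0.26 and 0.17 and blocked limma gave them an adjusted p of 0.444 and 0.462. Il1b, the cytokine gene whose product this pathway matures, is on this list and was singled out here after its values were seen. Il1b had 3.12, 5.82 and 10.3 FPKM with S100A8/A9 and 1.85, 3.61 and 6.75 FPKM with vehicle. The groups overlapped, although each pair was higher with S100A8/A9. Its ratios were 1.69, 1.61 and 1.52, and 1.80 in replicate 4, where it had 52.6 FPKM with S100A8/A9 and 29.1 FPKM with vehicle. The adjusted p of Il1b was 0.9998 in limma and 0.0631 with the block. The medians were 0.05 for G proteins and adenylate cyclases and 0.03 for cyclic AMP target genes, which adenosine receptors can drive. Camkk2, a kinase gene adjoining P2rx4, had 15.9, 14.9 and 17.8 FPKM with S100A8/A9 and 10.9, 12.7 and 13.03 FPKM with vehicle. Its log2 difference of 0.38 ± 0.11 (SE) gave an adjusted p of 1.00 in limma and 0.191 with the block, so the neighbour of P2rx4 did not pass although its groups did not overlap.

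**Figure D4:**
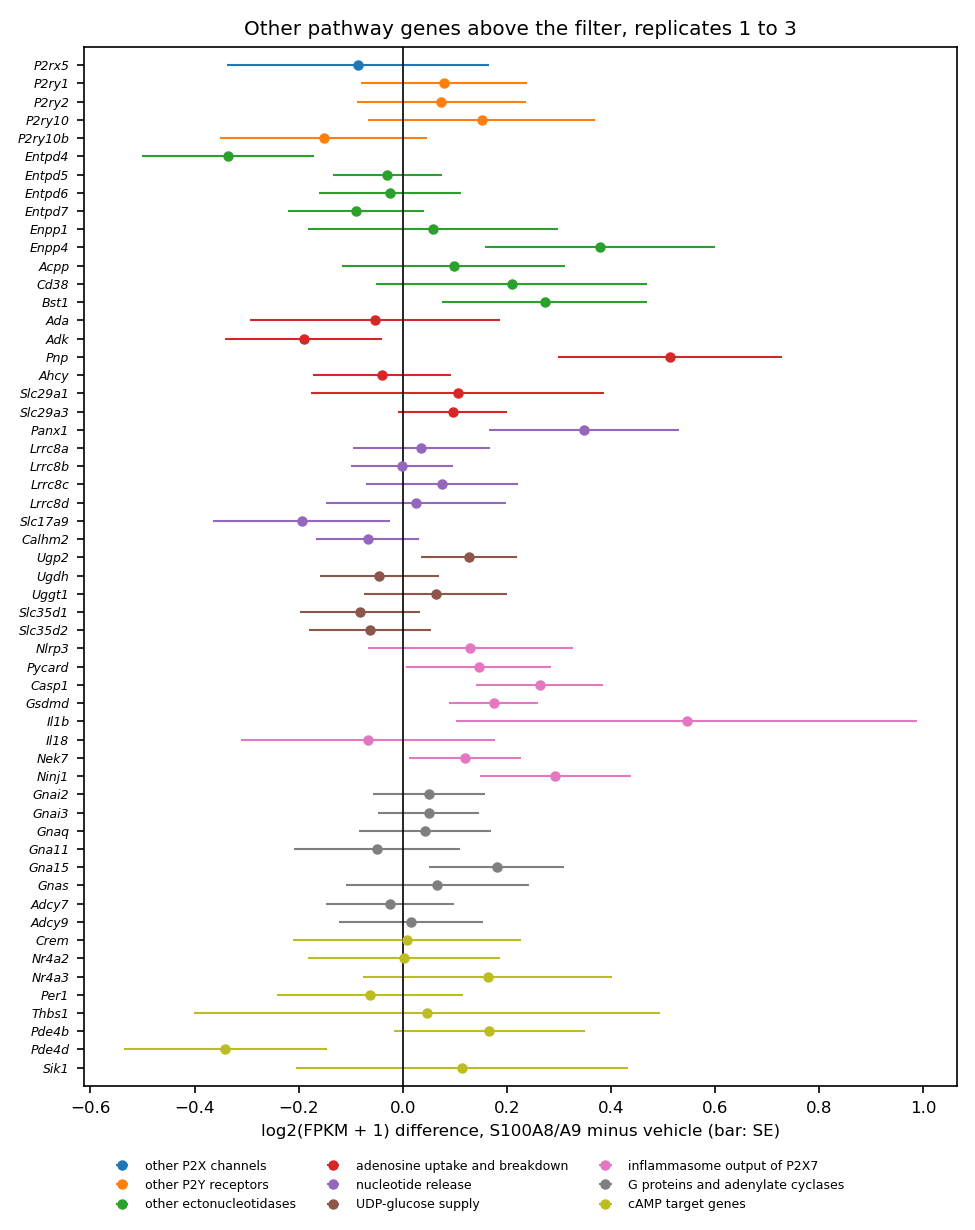
Differences in log2(FPKM + 1), S100A8/A9 minus vehicle, for the 56 further pathway genes above the filter in replicates 1 to 3, coloured by list; bars are standard errors of the limma fit without the block. The values run from -0.34 (Pde4d) to 0.55 (Il1b), with Pnp next at 0.51.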

How the data were processed

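RNA of 4 S100A8/A9 and 4 vehicle libraries was measured by poly(A) RNA-seq. The deposited values behave as FPKM; neither headers nor labels name a unit. Per the submitters' processing notes, the authors used the mm10 build with DESeq2 1.34.0, Subread, featureCounts and HISAT2, in roles not stated; how the FPKM were made is not given in the sources used here. Symbols were matched by Ensembl ID. Positions and exon lengths came from GENCODE (GRCm38) and promoters from RefSeq.

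FPKM are not counts, so limma-trend (limma 3.58.1, R 4.3.3) was fitted to log2(FPKM + 1) of replicates 1 to 3, keeping the 11387 genes that reached 1 FPKM in 3 or more of these 6, with group as the term and Benjamini-Hochberg adjustment over all of them, two-sided. The pseudocount understates changes of low genes. An adjusted p of 1.00 is a rounded 0.9998. Deviations from the group means correlated at 0.595, 0.254 and 0.52 between libraries of the same number, over genes. Same-numbered libraries were therefore treated as pairs. The other correlations, -0.531 to -0.01, add no separate evidence, since deviations within a group cancel out. The fit with the replicate block is printed where it changes a count and beside named genes. The scripts were tested on simulated data.

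Members and lists were chosen with earlier results of these data known. Named genes were all members, every list gene past the threshold or else up to 3 per list by smallest unadjusted p, fixed counterparts such as Ada and Ugp2, chromosomal neighbours, and the 5 nearest profiles of the 2 most variable members.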

Additional observations from a re-analysis of the deposited data

Results flagged for a closer look

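Within-pair log2 ratios of FPKM, S100A8/A9 over vehicle, were compared over the 4 pairs for each of the 10 genes, and for 3 of them a pair stood apart by Dixon's 95% criterion. For normally distributed values the criterion would single out about 1 in 20 genes. The share among all genes was not computed, so nothing is read from the count of 3. For P2ry14 it was pair 4, at 0.0826 beside 0.56, 0.51 and 0.49 in pairs 1 to 3. For Nt5e it was pair 1, at -0.47 beside 0.08, 0.14 and 0.10 in pairs 2 to 4. For P2ry12 it was pair 3, at -2.28 beside -0.14, 0.08 and -0.09 in pairs 1, 2 and 4, with roughly 5 reads in S100A8/A9 replicate 3 and 23 in vehicle replicate 3. Pair 4 comes from the separately made table.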

How the results depend on the processing

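The count of all genes past the threshold was 0 in the group-only fit and 59 with the replicate block, and 0 to 95 when libraries or pairs were left out (0 or 1 without single libraries, and 5 without pair 3, 42 without pair 1 and 95 without pair 2 with the block). With the block it was 3 with median-of-ratios factors, 62 with a pseudocount of 0.1, and 0 with upper-quartile factors or no filter, which were chosen after seeing the data; it was 0 with all 8 libraries. The count of other pathway genes was 0 under all of these 20 alternatives. The count of members was 0 without the block, 1 with it at pseudocounts of 1 or 0.1, and 0 in the other alternatives; it is no test of the members. The block changed no call of a named gene outside the members. The P2ry14 difference of 0.49 kept its sign under 20 of 20 alternatives, from 0.30 to 0.65. Adding the block or dropping the filter left each member's difference unchanged, so the 20 alternatives are not separate checks. Since the contrast was known when the genes were chosen, this tally is no support for the P2ry14 difference. The other tested members changed sign under 1 to 9 of 20; Nt5e ranged from -0.47 to 0.52 and P2ry13 from -0.54 to 0.22, with both extremes from leaving out single libraries. The cause was not tested. Depth limits P2ry12 most, and no interval is given since reads of replicates 1 to 3 are not known exactly.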
